A study of Mus musculus with 12 samples.

Results

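The transcripts described here are those of 9 genes of myofibroblasts and of transforming growth factor-β (TGF-β) signaling in obstructed or ischemic mouse kidney: Tgfb1, Pdgfra, Pdgfrb, Acta2, Tagln, Vim, Fn1, Postn and Ctgf. They were chosen by name, and all 9 were found among the 54532 genes of each table. In injured kidney, TGF-β1 is secreted in a latent form, is activated in the matrix or at cell surfaces, and signals through its receptors and Smad proteins. Resident fibroblasts and pericytes, which carry the platelet-derived growth factor (PDGF) receptors, can then take on a contractile and matrix-secreting state, the myofibroblast. α-Smooth muscle actin, the product of Acta2, is its usual marker, and fibronectin, periostin and connective tissue growth factor are among the proteins it lays down.

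Kidney RNA was sequenced from 12 C57BL/6 mice in 4 groups of 3. Mice with β-catenin knockout in tubules were set against wild-type mice, all after unilateral ureteral obstruction (UUO), in which the ureter of 1 kidney is tied. The knockout joins floxed β-catenin alleles with a Cre transgene under the Ksp-cadherin promoter. This promoter drives deletion mainly in the collecting duct, the loop of Henle and the distal tubule. By the study's staining β-catenin was also lost in proximal tubules, in most of them or in part, as the study puts it in different places. Among its limits the study states that Ksp-Cre mice would be better as wild-type controls. An effect of the Cre transgene itself therefore cannot be told apart here from loss of β-catenin. CD44 knockout mice were set against wild-type mice, all after unilateral ischemia-reperfusion injury (UIRI), a period without blood flow in 1 kidney. The study gives no description of the CD44 knockout allele. The labels give neither the age of the mice nor the interval from surgery to sampling. In the study's methods, purchased C57BL/6 mice were young adult males, and mice with UIRI lost the other kidney a day before they were killed, in the second week after surgery. The study names no CD44 knockout mice, so whether the UIRI libraries came from mice on this schedule is not given there. For UUO no interval was found there. No library came from an uninjured kidney, so no change with injury itself was measured.

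Levels are in FPKM, reads per gene scaled for gene length and for depth. Reads assigned to genes numbered 15940405 to 20737443 per library. Ctnnb1, the β-catenin gene, was at 84.7, 71.4 and 71.7 FPKM in β-catenin knockout mice, against 91.2, 86.7 and 98.5 FPKM in wild-type mice (log2 fold change −0.28, limma adjusted p = 0.189), and the groups did not overlap. Cd44 was at 18.97, 11.97 and 13.9 FPKM in the libraries labelled CD44 knockout, against 19.9, 16.3 and 17.8 FPKM in UIRI wild-type mice (log2 fold change −0.27, limma adjusted p = 0.339). Replicate 1 was inside the wild-type range. Thus neither targeted gene was called lower in its own knockout, with effects of similar size, and Cd44 was called lower in β-catenin knockout mice. The group is called the libraries labelled CD44 knockout because its Cd44 levels overlapped those of wild type and the allele is not described. Whether the level of the whole gene should fall in either knockout was not tested. Single libraries weighed on both comparisons. Genes at least 2-fold above every other UUO library numbered 80, 72 and 49 in β-catenin knockout replicates 1, 2 and 3, and 39, 55 and 178 in the wild-type ones, of 16166 tested. Leaving out β-catenin knockout replicate 1 gave 345 genes called higher and 295 called lower, and leaving out replicate 3 gave 1631 and 818, against 1004 and 705 with all 6 libraries. Leaving out replicate 2 of the libraries labelled CD44 knockout gave 1417 genes called higher and 763 called lower in that comparison, against 648 and 353 with all 6 libraries.

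Knockout and wild-type libraries of the same table were compared by limma, a linear model that pools the spread across genes, on log2(FPKM + 1). A gene was called lower or higher at a Benjamini-Hochberg adjusted p under 0.05 over all genes tested. All 9 members passed the filter of a mean of 0.5 FPKM in both tables. With 3 mice against 3, an exact permutation test of 1 gene cannot give a p below 0.1.

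In β-catenin knockout mice after UUO, the PDGF receptor genes Pdgfra and Pdgfrb, the intermediate filament gene Vim and the fibronectin gene Fn1 were lower. By group means, wild-type levels were 2.65, 1.96, 1.86 and 2.59 times those in knockout mice. Thus 4 of 9 members were called lower and 0 of 9 higher, where 4.36% of the 16166 genes tested were called lower and 6.21% higher. In 5 of 9 members every knockout library was below every wild-type library, which held for 15.9% of all genes tested. The same 5, Tgfb1 with those named, had an unadjusted p under 0.05. At that looser cut, 2088 of the 16166 genes tested were lower and 2753 higher. The median log2 fold change of the 9 members was −0.74, and that of all genes tested was 0.01. When FPKM were rescaled to TPM, which gives every library the same total, the median of all genes became −0.19, and the 1004 higher and 705 lower calls became 578 and 1178. For UIRI the same rescaling gave a median of −0.12 and turned 648 higher and 353 lower calls into 220 and 473. Effects given below are on the scale of the deposited FPKM, where the medians of all genes are near 0. The depth term of these FPKM matched, in every library, a size factor that makes the median gene alike between libraries. That scaling puts the medians of all genes near 0 in advance, so they are a reference point and not a result.

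**Figure D1:**
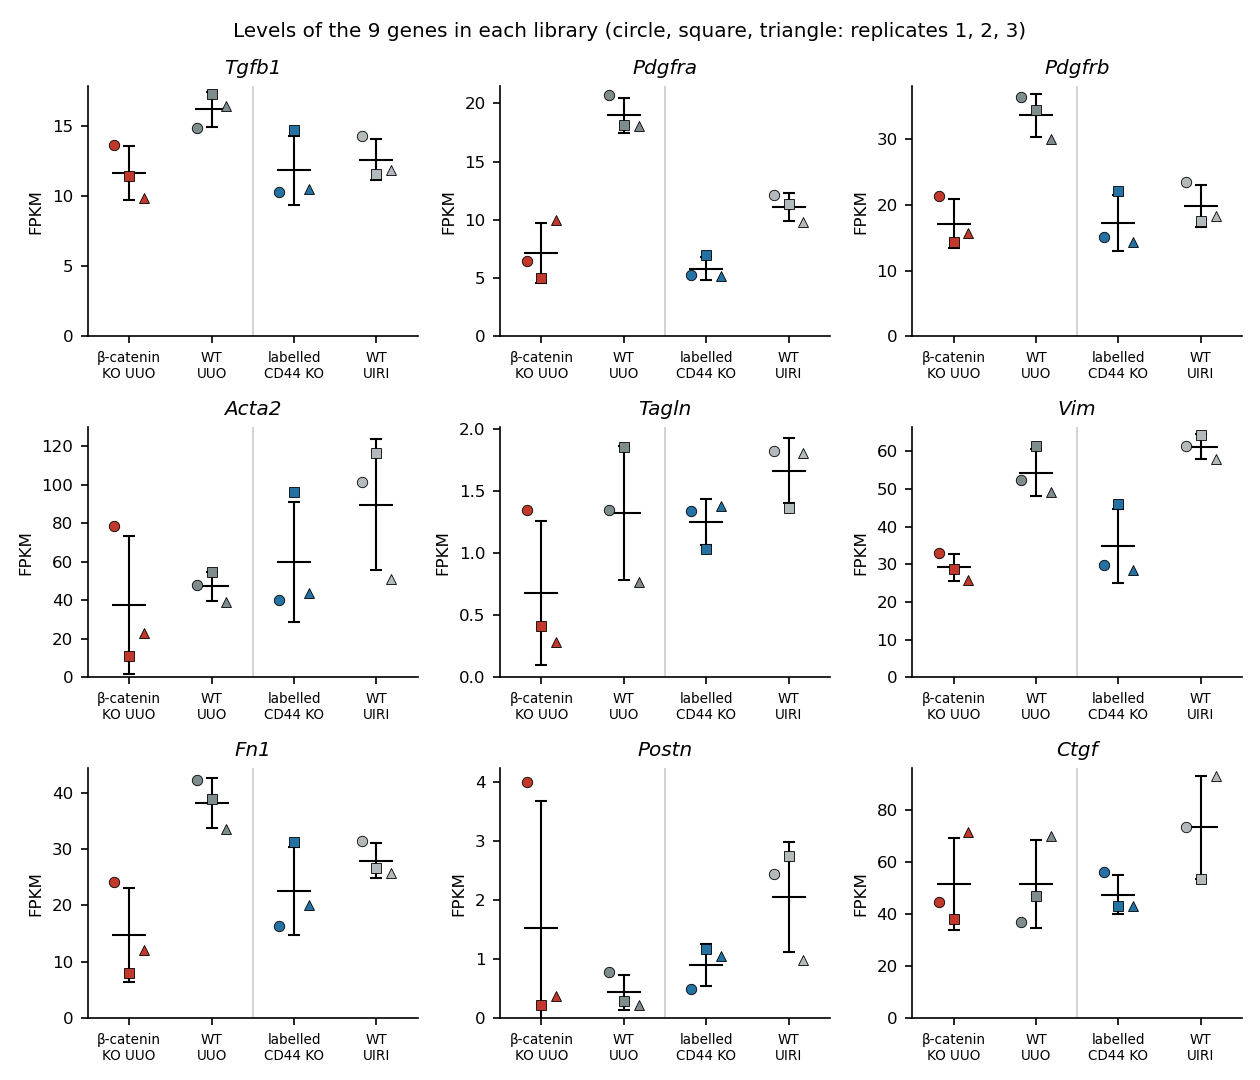
Level of each of the 9 genes in FPKM (y axis, linear) in the 3 libraries of each group (x axis, knockout left of wild type). Points are libraries, with a circle, square and triangle for replicates 1, 2 and 3, horizontal lines are means and bars are SD (n = 3, cut at 0), and the 2 tables were scaled separately. Pdgfra sits at 5.02 to 10.005 FPKM in β-catenin knockout mice and at 18.02 to 20.7 FPKM in wild-type mice, while the knockout points of Acta2 spread from 11.3 to 78.4 FPKM.

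Among signaling genes, Tgfb1 (chromosome 7, 25687002 to 25705077 on GRCm38) encodes the ligand TGF-β1. Its level was 13.6, 11.4 and 9.81 FPKM in β-catenin knockout mice, against 14.8, 17.3 and 16.4 FPKM in wild-type mice. All 3 knockout libraries were below all 3 wild-type libraries (exact permutation p = 0.1, two-sided, the lowest possible). The change did not pass the test across genes (log2 fold change −0.45, SE 0.14, limma adjusted p = 0.0778). It passed after rescaling to TPM, at −0.69 with a limma adjusted p of 0.0267, and with voom on recovered reads (limma's weighting of counts, with library totals as depth), at −0.62 with an adjusted p of 0.0214. Over all alternatives its adjusted p was 0.0214 to 0.204.

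Pdgfra (chromosome 5, 75152292 to 75198215) encodes PDGF receptor α, a surface receptor of fibroblasts. Its level was 6.46, 5.02 and 10.005 FPKM in β-catenin knockout mice, against 20.7, 18.2 and 18.02 FPKM in wild-type mice, and the groups did not overlap. It was thus lower (log2 fold change −1.33, SE 0.21, limma adjusted p = 0.0157). Pdgfrb (chromosome 18, 61045150 to 61085061) encodes PDGF receptor β, which marks pericytes and fibroblasts. Its level was 21.3, 14.3 and 15.7 FPKM in knockout mice, against 36.5, 34.4 and 30.1 FPKM in wild-type mice. These groups did not overlap either, and Pdgfrb was lower (log2 fold change −0.95, SE 0.16, limma adjusted p = 0.0183). Both calls depended on single libraries. That of Pdgfra was lost without knockout replicate 1 (limma adjusted p = 0.0506) and on leaving out wild-type replicate 1 (0.0506) or 2 (0.0648), over alternatives from 0.00243 to 0.0648. That of Pdgfrb was lost without knockout replicate 2 (limma adjusted p = 0.0545), wild-type replicate 1 (0.0593) or wild-type replicate 2 (0.0730), over alternatives from 0.00696 to 0.0730. Calls over all genes fell in these fits too. They numbered 345 higher and 295 lower without knockout replicate 1, and 285 and 274 without knockout replicate 2. Without wild-type replicate 1 they numbered 358 and 319, and without wild-type replicate 2 they numbered 130 and 98.

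Other genes of these pathways were read from lists written from textbook knowledge. Of 6 PDGF ligands and receptors, the receptors Pdgfra and Pdgfrb were lower, and none of the 4 ligands was called. Pdgfd, a ligand of PDGF receptor β, was at 7.68, 7.17 and 13.2 FPKM in β-catenin knockout mice, against 14.5, 16.7 and 13.6 FPKM in wild-type mice (log2 fold change −0.66, limma adjusted p = 0.0916). Of 12 further genes of TGF-β ligands and latency, 3 were lower and none was higher. These were Thbs1 (−1.33), whose product thrombospondin 1 can activate latent TGF-β, Lrrc32 (−0.85), whose product holds latent TGF-β on the cell surface, and Ltbp2 (−1.12), a matrix gene of the latent TGF-β-binding protein family. Of 16 receptor and Smad genes, 4 were lower and none was higher. These were the signaling receptors Tgfbr1 (−0.64) and Tgfbr2 (−0.66), and Eng (−0.87) and Acvrl1 (−0.72), a co-receptor and a receptor best known from endothelium. Smad2, Smad3 and Smad4, which carry the signal to the nucleus, had log2 fold changes of −0.14, −0.34 and −0.17 and were not called. The median log2 fold change was −0.42 for the ligand list, with Tgfb1 included, and −0.25 for the receptor list. Without knockout replicate 1, when 1.82% of all genes were called lower, Lrrc32 was the 1 gene of the ligand list called and Eng the 1 of the receptor list. The medians were then −0.49 and −0.29.

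Of 9 further genes that respond to TGF-β, Timp1, Col3a1 (−1.40) and Tgfbi (−1.10) were lower, and none was higher. Timp1, an inhibitor of matrix metalloproteinases, was at 23.4, 29.02 and 17.4 FPKM in β-catenin knockout mice, against 69.5, 140.1 and 209 FPKM in wild-type mice. The groups were far apart, and the wild-type libraries themselves differed widely (log2 fold change −2.43, SE 0.39, limma adjusted p = 0.0155). Col1a1 (collagen I) was at 43.4, 12.7 and 14.6 FPKM in knockout mice, against 53.8, 40.8 and 40.6 FPKM in wild-type mice, and was not called (log2 fold change −1.11, limma adjusted p = 0.132). Replicate 1 alone was inside the wild-type range. Smad7, the inhibitory Smad that TGF-β induces, was at 6.74, 5.63 and 5.48 FPKM in knockout mice and 5.92, 5.49 and 6.08 FPKM in wild-type mice (log2 fold change 0.02, 95% interval −0.24 to 0.28). Skil and Pmepa1, also on this list, each had a log2 fold change of −0.62 without overlap between the groups. Neither was called (limma adjusted p = 0.0626 and 0.0810). The list of 11, with Ctgf and Fn1, had a median of −1.11. At an unadjusted p under 0.05, 9 of the 11 were lower and 0 higher, where 2088 of the 16166 genes tested were lower. Without knockout replicate 1, when 1.82% of all genes were called lower, 5 genes of this list were, Col1a1, Col1a2, Col3a1, Fn1 and Timp1. The median was then −1.45. The lists and cell type markers were fitted without this UUO library only, a choice made after the data were seen. Leaving out any other single UUO library lost the call of Fn1.

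**Figure D2:**
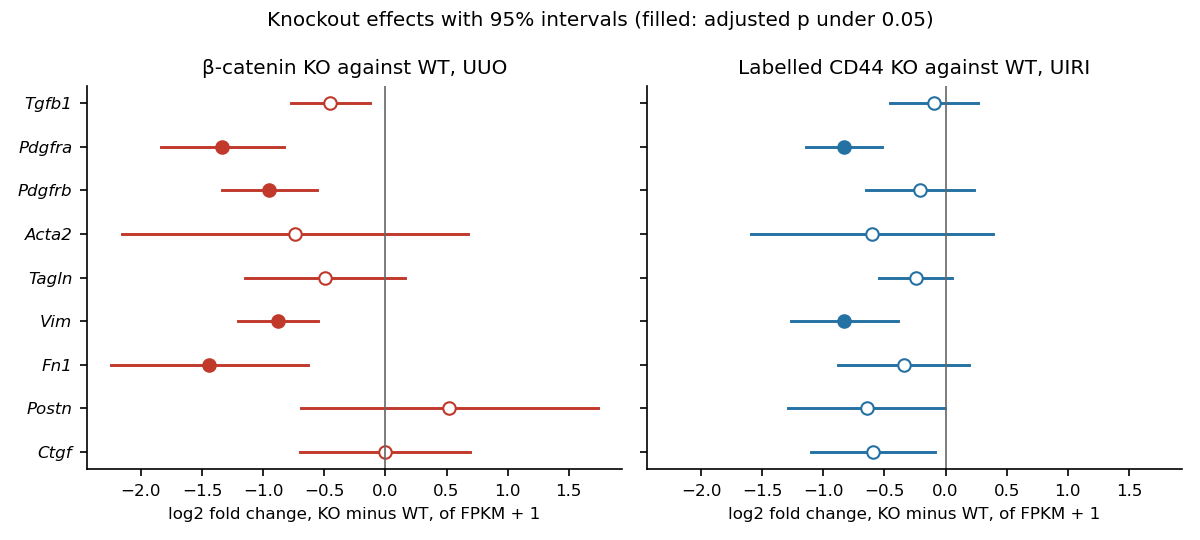
Log2 fold change of FPKM + 1, knockout minus wild type (x axis), for each of the 9 genes (y axis) with its 95% interval from limma, in the UUO table (left) and the UIRI table (right). Filled points passed an adjusted p of 0.05. Pdgfra and Vim are filled in both panels, Pdgfrb and Fn1 on the left only, and Postn (0.52 after UUO) is the only point right of 0.

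The contractile genes among the 9 were not called. Acta2 (chromosome 19, 34241090 to 34255336) was at 78.4, 11.3 and 23.1 FPKM in β-catenin knockout mice, against 48.2, 54.5 and 39.3 FPKM in wild-type mice. Knockout replicates 2 and 3 were below all wild-type libraries, and replicate 1 was above them all. The interval of the log2 fold change was wide, −2.16 to 0.67 around −0.74 (limma adjusted p = 0.446), and holds both a large fall and a rise. Without replicate 1 the value was −1.48, with a limma adjusted p of 0.0539, and without replicate 2 it was −0.13. Over all alternatives the adjusted p of Acta2 was 0.0539 to 0.895.

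The library that was high in Acta2 was also the highest UUO library for 7 of the 14 genes of the contractile list, namely Acta2, Actg2, Cnn1, Myh11, Tpm2, Myl9 and Lmod1. For Cald1, Mylk and Synpo2 it was below every wild-type library, as knockout replicates 2 and 3 were. Actg2, the γ-smooth muscle actin of visceral muscle, was at 20.3, 0 and 0.542 FPKM in β-catenin knockout mice, against 0.0993, 0.0686 and 0.0756 FPKM in wild-type mice. Cnn1 (calponin) was at 5.03, 0.299 and 0.679 FPKM in knockout mice, against 0.358, 0.215 and 0.387 FPKM in wild-type mice. Myh11 (smooth muscle myosin heavy chain) was at 5.38, 0.959 and 1.10 FPKM in knockout mice, against 1.19, 0.471 and 0.852 FPKM in wild-type mice. In all 3 genes replicate 1 was far above the other 5 libraries. The summed level of 6 smooth muscle markers (Myh11, Cnn1, Lmod1, Smtn, Actg2 and Synpo2) was 19.8 to 55.4 FPKM in knockout mice and 24.9 to 27.6 FPKM in wild-type mice, and 1 of them, Synpo2, was called lower. The part of these transcripts in the value of Acta2 was not tested. Coding sequences of the actin genes are much alike, and how reads shared between them were counted is not given in the sources used here, so the levels of Acta2 and Actg2 are uncertain to that extent. Of 12 further contractile genes, Cald1 (−1.25), Mylk (−0.68) and Synpo2 (−0.90) were lower, and none was higher. Cald1 and Mylk encode caldesmon and myosin light chain kinase, which regulate actomyosin outside smooth muscle as well. The 14 genes with Acta2 and Tagln had a median of −0.32, and the 12 of them tested without replicate 1 one of −0.70. Of the gene of serum response factor and those of its cofactors, 3 of 4 could be tested, and none was called in either comparison or had an unadjusted p under 0.05 after UUO.

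**Figure D3:**
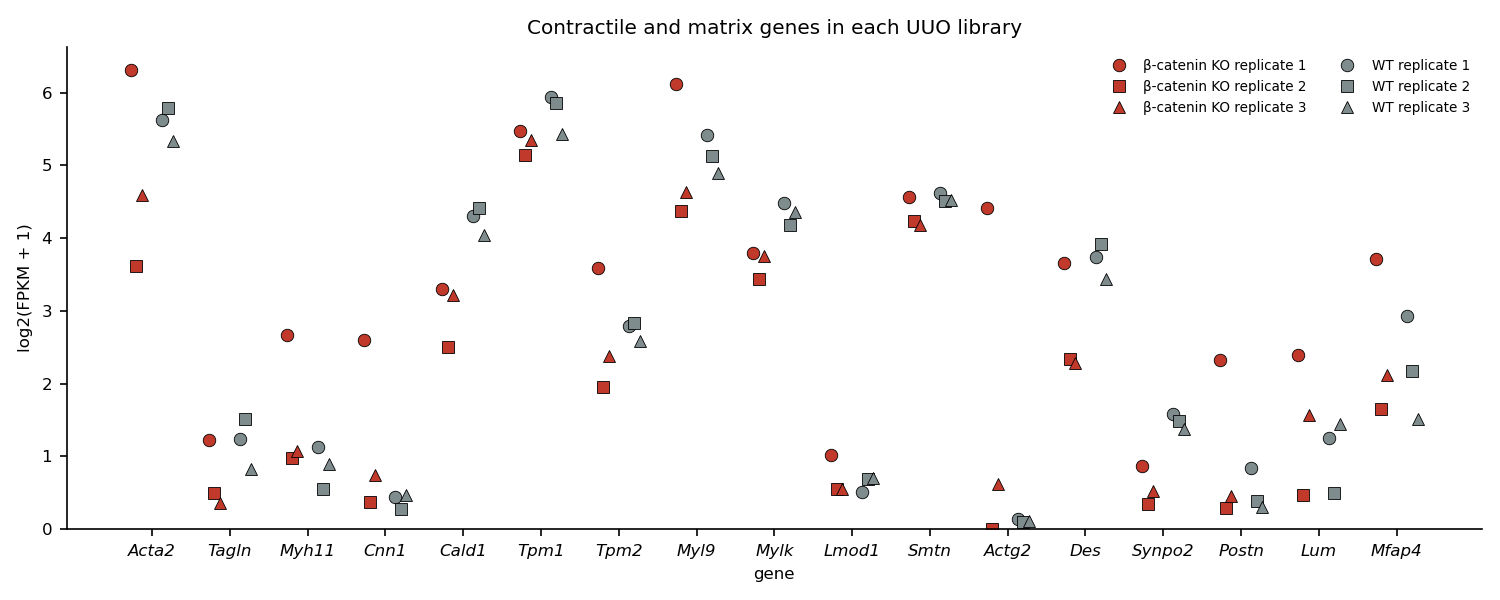
Level as log2(FPKM + 1) (y axis) of the 14 contractile genes and of the matrix genes Postn, Lum and Mfap4, added after their values were seen (x axis), in each UUO library, with β-catenin knockout libraries in red left of wild-type libraries in grey. The red circle, knockout replicate 1, is the highest point for 7 of the 14 contractile genes and below all grey points for Cald1, Mylk and Synpo2, and Actg2 is at 20.3 FPKM there and at most 0.542 FPKM in the other 5 libraries.

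The promoter of Acta2 is shown because its smooth muscle control elements are textbook examples, and those of Vim and Pdgfra because these genes were lower in both comparisons. Each is the run of 250 bases before the RefSeq transcription start on GRCm38.p6, written 5′ to 3′ on the strand of the gene. Capitals mark every match, on either strand, to a motif searched in windows of 300 bases that reach 50 bases past the start. These motifs were the CArG box, to which serum response factor binds, a CArG box with 1 other letter in its A/T core, the SMAD palindrome GTCTAGAC, the SMAD core CAGAC, the TEAD site GGAATG and the TCF/LEF core CTTTGA. No matches shown overlap each other. The form of the CArG box with 1 other letter was added after the window of Acta2 had been read. Acta2 is from chr19:34255374-34255623 (minus strand), Vim from chr2:13574061-13574310 and Pdgfra from chr5:75152001-75152250 (both plus strand). The annotated span of Vim begins at 13573927, so its window lies inside that span and is upstream of the RefSeq start only.
Acta2: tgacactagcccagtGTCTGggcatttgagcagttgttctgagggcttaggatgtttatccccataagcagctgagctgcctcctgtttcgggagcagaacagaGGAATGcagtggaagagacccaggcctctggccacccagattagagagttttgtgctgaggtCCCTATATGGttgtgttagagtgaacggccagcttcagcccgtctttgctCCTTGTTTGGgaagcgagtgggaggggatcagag
Vim: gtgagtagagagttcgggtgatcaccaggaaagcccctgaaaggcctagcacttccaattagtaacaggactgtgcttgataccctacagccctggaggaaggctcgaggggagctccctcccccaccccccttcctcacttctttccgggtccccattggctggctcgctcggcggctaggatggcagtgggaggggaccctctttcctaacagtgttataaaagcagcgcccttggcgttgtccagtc
Pdgfra: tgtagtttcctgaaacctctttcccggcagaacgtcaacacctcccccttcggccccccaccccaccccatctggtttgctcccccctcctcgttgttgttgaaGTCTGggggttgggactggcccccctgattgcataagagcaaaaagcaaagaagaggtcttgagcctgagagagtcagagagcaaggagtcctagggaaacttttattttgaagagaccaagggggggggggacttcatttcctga
In Acta2, counted back from the start, CCCTATATGG lies at −84 to −75 and CCTTGTTTGG at −34 to −25. Both are CArG boxes with 1 other letter, a form found in 8.50% of the 32851 windows, and the strict CArG box is in 1.63%. The TEAD site of Acta2 lies at −146 to −141 (14.7% of windows), and a SMAD core, on the other strand, at −235 to −231 (49.6% of windows). Pdgfra holds 1 SMAD core, also on the other strand, at −146 to −142, and Vim holds none of these letters. The TCF/LEF core, found in 16.003% of windows, and the SMAD palindrome, found in 0.213%, had no match in the windows of Acta2, Postn, Vim, Pdgfra or Tgfb1, the 5 of 9 members matched by symbol. A match describes the letters and was not tested against expression.

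Tagln (chromosome 9, 45929619 to 45936058) encodes transgelin (SM22α), an actin-binding protein of smooth muscle. It was at 1.34, 0.411 and 0.283 FPKM (46, 13 and 10 reads) in β-catenin knockout mice, against 1.35, 1.85 and 0.770 FPKM (52, 69 and 26 reads) in wild-type mice. Knockout replicates 2 and 3 were again lowest, and the groups overlapped. The change on log2(FPKM + 1), a scale that understates changes at such levels, was −0.49 (95% interval −1.15 to 0.16, limma adjusted p = 0.280). With voom on recovered reads it was −1.32, and it was not called in any alternative (adjusted p 0.124 to 0.548). Of its 1988 exon bases, 1349 (67.9%) are also exon bases of Gm48529 or Pcsk7, which run on the other strand. Whether the counting used the strand is not given in the sources used here. Therefore the level of Tagln is uncertain in all 4 groups, and its low value beside that of Acta2 cannot be read as a low level of the transcript.

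Vim (chromosome 2, 13573927 to 13582826) encodes vimentin, the intermediate filament protein of mesenchymal and immune cells and of injured tubules. It was at 32.96, 28.8 and 25.7 FPKM in β-catenin knockout mice, against 52.5, 61.3 and 49.1 FPKM in wild-type mice. The groups were well apart, and Vim was lower (log2 fold change −0.88, SE 0.14, limma adjusted p = 0.0154). Among its 15 alternatives the call was lost only without wild-type replicate 2 (adjusted p = 0.0635, over alternatives from 0.00433 to 0.0635). None of 8 other intermediate filament genes was called. Des, the muscle filament desmin, was at 11.6, 4.07 and 3.85 FPKM in knockout mice, against 12.3, 14.1 and 9.83 FPKM in wild-type mice. Replicate 1 was again alone in the wild-type range, and without it Des was called lower. The epithelial keratin genes Krt8 and Krt18 had log2 fold changes of 0.08 and −0.24. The other keratin genes of the list differed in direction. Without knockout replicate 1, Krt7, Krt19 and Krt20 had −0.37, 0.48 and 1.13. At an unadjusted p under 0.05 with all libraries, 1 gene of the intermediate filament list was higher.

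Among matrix genes, Fn1 (chromosome 1, 71585520 to 71653200) encodes fibronectin, an early matrix protein of fibrosis. It was at 24.1, 8.01 and 12.2 FPKM in β-catenin knockout mice, against 42.2, 38.9 and 33.5 FPKM in wild-type mice. Replicate 1 was the highest of the knockout libraries here too, but was still below every wild-type library. Fn1 was lower (log2 fold change −1.44, SE 0.34, limma adjusted p = 0.0409). Without replicate 1 the value was −1.84 (adjusted p = 0.0239). The call was lost without knockout replicate 2 (limma adjusted p = 0.0805) or 3 (0.0765) and without wild-type replicate 1 (0.112), 2 (0.121) or 3 (0.0721), over alternatives from 0.0118 to 0.121. Without the filter on low values, the calls of Fn1 (0.103), Pdgfra (0.0510) and Pdgfrb (0.0522) were lost and that of Vim was not (0.0443, all limma adjusted p). Of 10 genes whose products bind or work with fibronectin, none was called. At an unadjusted p under 0.05, 4 were lower and 1 was higher, Tns1 (tensin 1, 0.61). Fbn1 (fibrillin 1) had a log2 fold change of −1.14 (limma adjusted p = 0.0566), and Itga5, a subunit of a fibronectin receptor, −0.78 (0.107).

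Postn (chromosome 3, 54361109 to 54391037) encodes periostin, a matricellular protein. It was at 4.0001, 0.224 and 0.375 FPKM (599, 31 and 58 reads) in β-catenin knockout mice, against 0.782, 0.301 and 0.230 FPKM (132, 49 and 34 reads) in wild-type mice. Thus a single library held most of its reads, and the other 5 were under 1 FPKM. The log2 fold change of 0.52 (95% interval −0.69 to 1.73, limma adjusted p = 0.537) rests on that library, without which Postn was under the filter. The fibroblast gene Lum (lumican) was high there too, at 4.27, 0.385 and 1.98 FPKM in knockout mice, against 1.39, 0.414 and 1.73 FPKM in wild-type mice.

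Ctgf (Ccn2; chromosome 10, 24595442 to 24598683) encodes a matricellular protein induced by TGF-β and through the Hippo pathway. It was at 44.5, 38.3 and 71.7 FPKM in β-catenin knockout mice, against 37.1, 47.1 and 70.1 FPKM in wild-type mice. The groups covered much the same range, with a mean of 51.5 ± 17.7 FPKM under knockout and of 51.4 ± 16.9 FPKM in wild type (SD, n = 3 each). The 95% interval of the log2 fold change was −0.70 to 0.69, so that a moderate difference in either direction was not detectable with 3 mice a group. Of 2861 exon bases, 665 are shared with Gm15270 on the other strand. Of 8 further matricellular genes tested, Tnc, Wisp1 and Thbs1 were lower, and none was higher. Tnc, which encodes tenascin C, was at 2.33, 1.71 and 2.29 FPKM in knockout mice, against 8.30, 9.95 and 12.9 FPKM in wild-type mice (log2 fold change −1.86, SE 0.17, limma adjusted p = 0.00613). Wisp1 (Ccn4), a CCN family gene named for its induction by Wnt, was at 1.65, 0.531 and 1.41 FPKM in knockout mice, against 3.95, 5.76 and 3.16 FPKM in wild-type mice (log2 fold change −1.28, limma adjusted p = 0.0264). In both genes the groups did not overlap. Cyr61 (Ccn1), a Hippo target like Ctgf, was at 27.5, 58.2 and 24.7 FPKM in knockout mice and 30.4, 78.6 and 71.1 FPKM in wild-type mice (log2 fold change −0.69, limma adjusted p = 0.331). Of 15 fibroblast and pericyte markers 14 could be tested, and Dcn (−0.98), Col3a1 and Meox1 (−0.65) were lower. Without knockout replicate 1 these were Dcn, Col1a1, Col1a2 and Col3a1, and the median of the list was −0.46, against −0.35 with all 6 libraries.

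Other cell types moved with these genes. In a bulk sample, fewer cells of a type and less RNA per cell cannot be told apart. Of 12 macrophage and monocyte markers, 10 were lower in β-catenin knockout mice, with a summed level of 616 to 709 FPKM in knockout mice and 1183 to 1455 FPKM in wild-type mice. Of 12 proximal tubule markers, 8 were higher, with sums of 5405 to 8965 FPKM in knockout mice and 3053 to 6161 FPKM in wild-type mice. Of 8 endothelial markers 1 was lower (Pecam1), of 6 injured tubule markers 2 (Havcr1 and Clu), and of 6 T lymphocyte and 6 podocyte markers none. At an unadjusted p under 0.05, 1 injured tubule marker was higher. Endothelial markers summed to 130.4 to 146 FPKM in knockout mice and 161 to 176 FPKM in wild-type mice, and injured tubule markers to 1123 to 1325 and 1959 to 2756 FPKM. None of these markers was at 0 in any library. Their part in the lower Vim, Pdgfra, Pdgfrb and Fn1 was not tested. Without knockout replicate 1, when calls over all genes were also fewer (1.82% lower and 2.13% higher), the counts were 3 of 12 for macrophage and 4 of 12 for proximal tubule markers, and none of the endothelial or injured tubule markers was called. The median log2 fold changes were then −1.03 for macrophage and 1.29 for proximal tubule markers, against −1.08 and 1.31 with all 6 libraries.

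In the libraries labelled CD44 knockout after UIRI, Pdgfra and Vim were lower, and no member was higher. With the replicate number as a block neither passed (limma adjusted p = 0.0830 for Pdgfra and 0.0903 for Vim), and 0 of all genes tested did. By group means, wild-type levels were 1.91 and 1.76 times those in the labelled knockout. Thus 2 of 9 members were called lower, where 2.19% of the 16113 genes tested were called lower and 4.02% higher. In the same 2 members every labelled knockout library was below every wild-type library, an order that 14.5% of all genes tested had. The log2 fold change was below 0 for all 9 members, with a median of −0.59, against 0.00 for all genes tested. At an unadjusted p under 0.05 there were 4 members, where 1812 of the 16113 genes tested were lower and 2552 higher.

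Pdgfra was at 5.27, 6.97 and 5.21 FPKM in the libraries labelled CD44 knockout, against 12.2, 11.4 and 9.81 FPKM in wild-type mice (log2 fold change −0.83, SE 0.13, limma adjusted p = 0.0286). Vim was at 29.8, 46.1 and 28.5 FPKM in the labelled knockout, against 61.4, 64.4 and 57.9 FPKM in wild-type mice (log2 fold change −0.83, SE 0.18, limma adjusted p = 0.0494). Replicate 2 of the labelled knockout was nearest to wild type for both. Each call was lost on leaving out any library but that one. In those fits calls over all genes were nearly all lost too, with 0 to 5 higher and 1 to 5 lower. Without labelled knockout replicate 1 or 3 the limma adjusted p of Pdgfra was 0.0729 or 0.113, and without wild-type replicate 1, 2 or 3 it was 0.0861, 0.0852 or 0.0916. For Vim it was 0.117 or 0.164 without these knockout libraries, and 0.127, 0.128 or 0.132 without the wild-type ones. Without labelled knockout replicate 2 it was 0.00630 for Pdgfra and 0.00365 for Vim. Both calls were also lost without the filter on low values (0.0645 and 0.104), and that of Vim without limma's trend (0.0573). Over all alternatives the adjusted p was 0.00630 to 0.113 for Pdgfra and 0.00365 to 0.164 for Vim.

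The other PDGF receptor gene, Pdgfrb, was at 15.1, 22.2 and 14.4 FPKM in the libraries labelled CD44 knockout, against 23.5, 17.6 and 18.4 FPKM in wild-type mice. The groups overlapped (log2 fold change −0.21, 95% interval −0.65 to 0.23, limma adjusted p = 0.507). The level of Pdgfrb divided by that of Pdgfra in the same library does not depend on the depth scaling. It was 2.87, 3.18 and 2.76 in the labelled knockout and 1.93, 1.55 and 1.87 in UIRI wild-type mice. After UUO it was 3.30, 2.85 and 1.57 in β-catenin knockout mice, against 1.76, 1.89 and 1.67 in wild-type mice. Thus the ratio was above every wild-type value in all 3 labelled CD44 knockout libraries and in 2 of 3 β-catenin knockout libraries. It was chosen after the values were seen and was not tested. Tgfb1 was at 10.2, 14.7 and 10.5 FPKM in the labelled knockout, against 14.2, 11.6 and 11.9 FPKM in wild-type mice (log2 fold change −0.09, 95% interval −0.46 to 0.27), and the groups overlapped.

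Acta2 was at 40.1, 96.1 and 44.03 FPKM in the libraries labelled CD44 knockout, against 102, 117 and 51.2 FPKM in wild-type mice. Each group had 1 library near the level of the other, and the change did not pass (log2 fold change −0.60, 95% interval −1.59 to 0.39, limma adjusted p = 0.395). Tagln was at 1.34, 1.04 and 1.38 FPKM in the labelled knockout, against 1.83, 1.37 and 1.80 FPKM in wild-type mice (log2 fold change −0.24, limma adjusted p = 0.262). Fn1 was at 16.3, 31.3 and 20.04 FPKM in the labelled knockout, against 31.4, 26.6 and 25.8 FPKM in wild-type mice (log2 fold change −0.34, limma adjusted p = 0.371). Replicate 2 was again at the wild-type level, and without it Fn1 was called lower, at −0.60 with an adjusted p of 0.0355 (over alternatives from 0.0355 to 0.705).

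Postn was at 0.498, 1.17 and 1.05 FPKM (75, 168 and 180 reads) in the libraries labelled CD44 knockout, against 2.44, 2.74 and 0.987 FPKM (356, 438 and 170 reads) in wild-type mice (log2 fold change −0.65, limma adjusted p = 0.184). Wild-type replicate 3 was inside the range of the labelled knockout. Ctgf was at 56.1, 42.96 and 43.3 FPKM in the labelled knockout, against 73.3, 53.6 and 93.2 FPKM in wild-type mice (log2 fold change −0.59, limma adjusted p = 0.131). Wild-type replicate 2 of Ctgf was the only one inside the range of the labelled knockout. With voom on recovered reads and library totals, Ctgf was called lower at −0.74 (adjusted p = 0.0446, over alternatives from 0.0446 to 0.321).

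Few of the other genes on the lists were called after UIRI, and none of the 4 PDGF ligands was. Timp1 was the 1 of 9 further TGF-β response genes called lower. It was at 34.6, 56.6 and 31.7 FPKM in the libraries labelled CD44 knockout, against 126, 81.4 and 101 FPKM in wild-type mice (log2 fold change −1.33, SE 0.25, limma adjusted p = 0.0362). Acvrl1 (−0.42) was the 1 of 16 receptor and Smad genes called. Furin, whose product cleaves the TGF-β precursor, was higher (0.76) among 12 further ligand and latency genes. Smtn (smoothelin, a smooth muscle cytoskeletal protein) was the 1 of 12 further contractile genes called. It was at 33.05, 39.6 and 36.8 FPKM in the labelled knockout, against 26.3, 25.1 and 21.1 FPKM in wild-type mice, and thus higher (log2 fold change 0.58, limma adjusted p = 0.0397). In the matricellular list, Cyr61 was at 104, 94.1 and 91.9 FPKM in the labelled knockout, against 53.9, 45.5 and 55.02 FPKM in wild-type mice. It was thus higher (log2 fold change 0.90, SE 0.11, limma adjusted p = 0.0267), where Ctgf had −0.59. Tnc was at 3.84, 23.3 and 7.32 FPKM in the labelled knockout, against 25.4, 16.4 and 15.3 FPKM in wild-type mice, and was not called (log2 fold change −0.98, limma adjusted p = 0.305). Among fibronectin partners, Fbln1 (fibulin 1) was lower (−0.89) and Plau (urokinase) higher (1.05). Dcn (decorin, −1.10) and Rgs5 (−0.54), a pericyte gene, were the fibroblast and pericyte markers called. Without labelled knockout replicate 2, when 4.73% of all genes were called lower, 6 of these markers and 3 matricellular genes were called lower. So were 5 of the 11 TGF-β response genes (Fn1 among them) and 5 of the 9 intermediate filament genes (Vim among them). This fit of the lists was added after the data were seen, and the lists were not fitted without any other UIRI library. Calls over all genes numbered 0 to 5 higher and 1 to 5 lower on leaving out any other UIRI library.

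**Figure D4:**
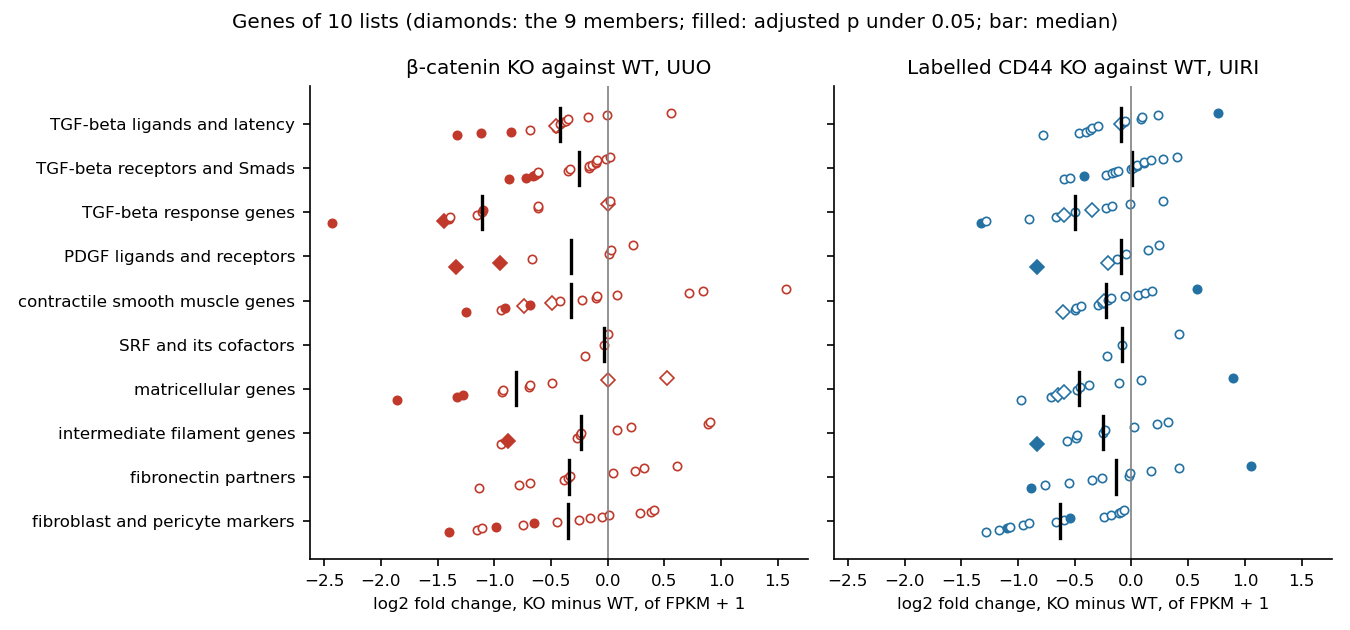
Log2 fold change of FPKM + 1, knockout minus wild type (x axis), of each gene tested in 10 lists (y axis), in the UUO table (left) and the UIRI table (right). Diamonds are the 9 members, filled points passed an adjusted p of 0.05, and black bars are list medians. The median of TGF-β response genes is −1.11 on the left and −0.50 on the right, and those of the receptor and Smad genes are −0.25 and 0.01.

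Of 12 macrophage and monocyte markers, 7 were lower in the libraries labelled CD44 knockout, with a summed level of 820.3 to 1435 FPKM in the labelled knockout and 2128 to 2200.3 FPKM in wild-type mice. Of 12 proximal tubule markers, 5 were higher, with sums of 5179 to 15408 FPKM in the labelled knockout and 3134 to 4399 FPKM in wild-type mice. Of 6 T lymphocyte markers 4 were lower, with sums of 6.22 to 8.97 FPKM in the labelled knockout and 18.4 to 32.3 FPKM in wild-type mice. Of 8 endothelial, 6 podocyte and 6 injured tubule markers none was called. The 6 smooth muscle markers summed to 36.9 to 45.9 FPKM in the labelled knockout and 25.1 to 31.5 FPKM in wild-type mice. Smtn was the 1 called and made up most of each sum. It was at 33.05, 39.6 and 36.8 FPKM in the labelled knockout, against 26.3, 25.1 and 21.1 FPKM in wild-type mice. Effects of the 6 had a median of 0.03, so the sums do not show that smooth muscle markers were higher as a group. None of these markers was at 0 in any library. The part of these cell types in the lower Pdgfra and Vim was not tested. Without labelled knockout replicate 2, when calls over all genes were also more (4.73% lower and 8.79% higher), the counts were 11 of 12 for macrophage and 10 of 12 for proximal tubule markers. The median log2 fold changes were then −0.91 and 1.78, against −0.79 and 1.28 with all 6 libraries. These markers, like the lists, were not fitted without any other UIRI library.

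To ask whether a member responded differently in the 2 models, the knockout effects were compared in 1 limma model of all 12 libraries, in which the tables share no controls. None of the 9 members passed the test of this difference, and 1 of 16193 genes passed (0.00618%). At an unadjusted p under 0.05 there were 2 members, Pdgfrb and Fn1. That looser cut was also met by 1071 of all genes with a difference below 0 and 1131 above 0. Pdgfrb had an effect of −0.95 in β-catenin knockout mice and −0.21 in the libraries labelled CD44 knockout, a difference of −0.74 (95% interval −1.32 to −0.16, limma adjusted p = 0.266). The difference was −1.10 for Fn1 (95% interval −2.10 to −0.09, limma adjusted p = 0.331). For Pdgfra it was −0.50 (−1.09 to 0.10) and for Vim −0.05 (−0.57 to 0.48). For Tgfb1 it was −0.36 (−0.82 to 0.11) and for Ctgf 0.59 (−0.29 to 1.47). The intervals of Acta2 (−0.14, −1.96 to 1.68) and Postn (1.17, −0.27 to 2.60) were too wide to place the effects in any order. Injury model and targeted gene differ together between the tables and cannot be told apart.

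Levels were also set side by side across the groups. Acta2, Ctgf and Vim were the highest 3 of the 9 members in each group, and Tagln and Postn the lowest 2. In β-catenin knockout mice the order began with Ctgf (51.5 ± 17.7 FPKM), Acta2 (37.6 ± 35.8) and Vim (29.2 ± 3.62), each overlapping the next in its range (SD, n = 3 each, as for all groups here). In UUO wild-type mice it began with Vim (54.3 ± 6.30 FPKM), Ctgf (51.4 ± 16.9), Acta2 (47.3 ± 7.63) and Fn1 (38.2 ± 4.37), again with overlap between neighbours. In the libraries labelled CD44 knockout it began with Acta2 (60.1 ± 31.2 FPKM), Ctgf (47.5 ± 7.49) and Vim (34.8 ± 9.82). The order was the same in UIRI wild-type mice, with Acta2 at 89.8 ± 34.2 FPKM, Ctgf at 73.4 ± 19.8 and Vim at 61.2 ± 3.26, and in both groups these 3 ranges overlapped from each to the next. Pdgfrb was above Pdgfra in every group without overlap.

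The tables were scaled separately, so wild-type levels of the 2 injuries are given in both FPKM and TPM, with no test. Pdgfra was 1.71 times as high after UUO as after UIRI in FPKM, and 1.88 times in TPM. For Pdgfrb these ratios were 1.70 and 1.86. The reverse order was seen for Acta2, 1.90 times as high after UIRI in FPKM and 1.72 times in TPM, and for Postn, 4.69 and 4.15 times.

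As a description of how the members varied together, Pearson correlations of log2(FPKM + 1) were taken over the 12 libraries after the mean of each table was removed. The libraries share their groups, so that the difference between knockout and wild type sets part of each value. Fn1 and Pdgfrb had an r of 0.96, Pdgfrb and Tgfb1 of 0.90, and Pdgfra and Vim of 0.86. Ctgf had an r between −0.12 and 0.35 with the other 8 members. When the mean of each group was removed instead, Acta2 had an r of 0.93 with Fn1 and 0.90 with Postn. β-catenin knockout replicate 1, the highest of its group for Acta2, Fn1 and Postn, weighs on both values. They were not computed without it. Pdgfra and Vim then had an r of 0.15, so that within groups the pair lower in both comparisons varied together only weakly.

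**Figure D5:**
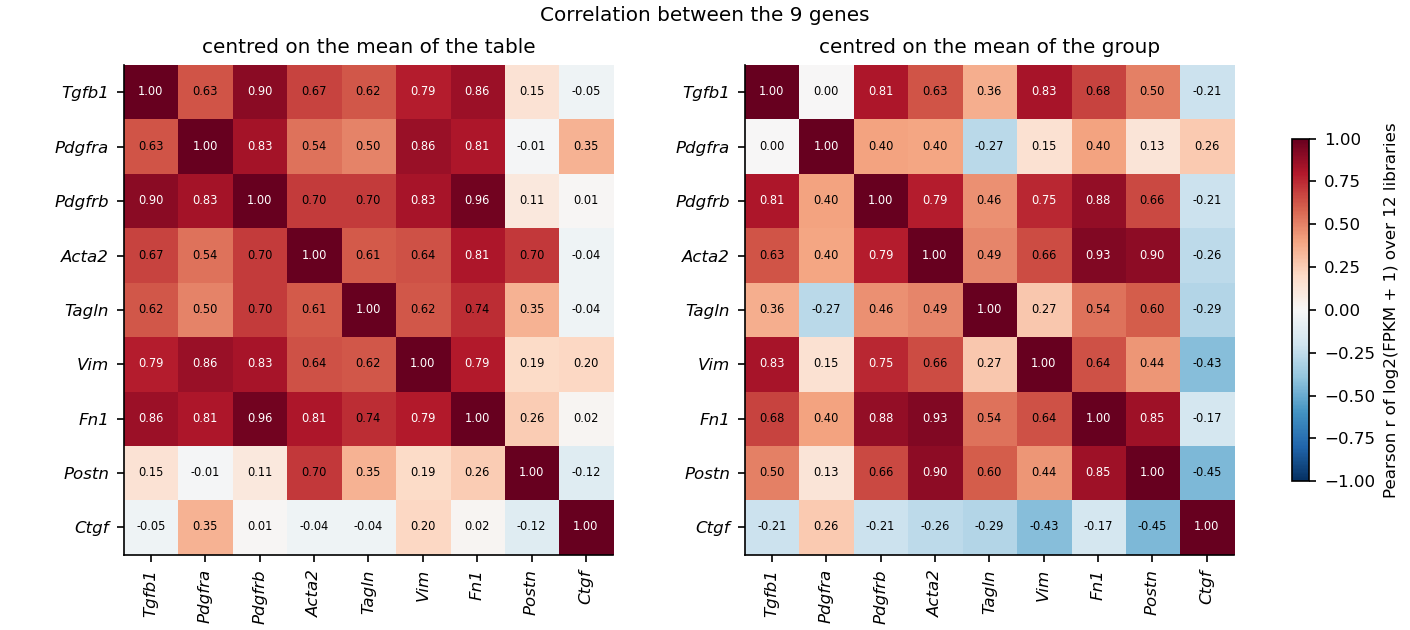
Pearson r of log2(FPKM + 1) between the 9 genes (both axes) over 12 libraries, after the mean of each table (left) or of each group (right) was removed. Colour and number give r. Fn1 and Pdgfrb have 0.96 on the left, Acta2 and Fn1 0.93 on the right, and Ctgf stays between −0.12 and 0.35 on the left.

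The genes with the most similar pattern were sought among 12020 other protein-coding genes at a mean of 1 FPKM or more, by r over the 12 libraries with table means removed. Acta2 was nearest to Tpm2 (0.94), Myl9 (0.91) and Tgfb1i1 (0.91), and Postn to Mfap4 (0.91), Myl9 (0.90) and Sfn (0.89). Of these, Acta2, Postn, Tpm2, Myl9 and Mfap4 were highest among UUO libraries in β-catenin knockout replicate 1, which weighs on their r. Fn1 was nearest to Tmem132a (0.97), Fbn1 (0.96) and Prelp (0.96), and Pdgfrb to Gpr153 (0.98), Svep1 (0.98) and Ptgir (0.97). Pdgfra was nearest to Nin (0.98), Pros1 (0.97) and Fli1 (0.97), and Vim to Pla2g15 (0.97), Hexa (0.96) and Cfp (0.96). The nearest genes of Tgfb1 were Gusb (0.94), Mmp3 (0.93) and Capzb (0.92), those of Ctgf B4galt1 (0.93), Epn2 (0.90) and Mlxip (0.88), and those of Tagln Col14a1 (0.90), Cenpa (0.89) and Plat (0.89).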

How the data were processed

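Kidney libraries of 12 mice were made with the NEBNext Ultra RNA kit. Per the labels, reads were aligned with HISAT2 2.0.5 to GRCm38 (mm10) and assigned to genes by featureCounts 1.5.0-p3, and groups were compared with DESeq2 1.20.0. The authors deposited FPKM in 2 tables, 1 per knockout with its own wild-type mice. FPKM times gene length gave whole reads for 100% of values (within 0.01 read), 15940405 to 20737443 a library. The depth term of the deposited FPKM was set separately in each table, so levels were not tested across tables. Columns of the authors' own comparisons were not used.

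Fits were made in R 4.3.3 with limma 3.58.1 (trend in eBayes) on log2(FPKM + 1). Genes under a mean of 0.5 FPKM in the 6 libraries were left out, and two-sided p-values were adjusted by Benjamini-Hochberg over all others. Single genes were compared by exact permutation tests in SciPy 1.17.1. Each UUO library is from 1 mouse, per the study, and the same was assumed for the UIRI libraries. The procedure was tested on simulated data. Alternatives were a pseudocount of 0.1, no filter, a filter at 1 FPKM, TPM, no trend, voom, the replicate number as a block, 12 libraries in 1 fit and each library left out. Voom with the depth term of the FPKM, the lists without a single library, the difference with libraries left out and the looser CArG box were added after seeing the data. Promoters are from RefSeq (GRCm38.p6), and exon overlaps from GENCODE vM21. By rule, the genes named are the 9 members, genes of the lists, the targeted genes, and for each member the 3 with the highest correlation. Which list genes are named without a call was chosen after their values were seen. The members and lists were chosen with earlier results of these data known. Figures were drawn with Matplotlib 3.10.9.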

Additional observations from a re-analysis of the deposited data

Results flagged for a closer look

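Itgb6, a subunit of the integrin that activates latent TGF-β on epithelium, was below its wild-type libraries in every knockout library of 1 model and above them in every knockout library of the other. It was at 27.1, 23.9 and 29.4 FPKM in β-catenin knockout mice, against 40.1, 35.4 and 31.02 FPKM in UUO wild-type mice (log2 fold change −0.39, limma adjusted p = 0.109). It was at 26.2, 22.3 and 21.95 FPKM in the libraries labelled CD44 knockout, against 19.1, 20.9 and 19.3 FPKM in UIRI wild-type mice (log2 fold change 0.23, limma adjusted p = 0.175). Neither effect passed the test. The difference between the effects was −0.62 (95% interval −0.98 to −0.26), and it did not pass over all genes (limma adjusted p = 0.191). Itgb6 was flagged for this opposite order, so the choice itself favours an interval away from 0. The share of all genes with such an order is not given here.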

How the results depend on the processing

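In β-catenin knockout mice, 4 members were called lower. This count was 1 without the filter on low values and 0 to 3 on leaving out each library, and within 1.5 times of 4 under the other alternatives. In the libraries labelled CD44 knockout, 2 members were called lower. The count was 0 without the filter, 1 without the trend, and 0 to 3 on leaving out each library. Over all genes after UUO, where 1004 were higher and 705 lower, calls numbered 280 and 193 without the filter, 1888 and 1419 with 12 libraries in 1 fit, and 916 and 1441 with voom. After UIRI, where 648 were higher and 353 lower, they numbered 43 and 20 without the filter, 589 and 1188 with voom, and 1044 and 667 with voom on the depth term of the FPKM. On leaving out each library, calls numbered 130 to 1631 higher and 98 to 818 lower after UUO, and 0 to 5 higher and 1 to 5 lower after UIRI, except for 1417 and 763 without CD44 knockout replicate 2. The effect of Ctgf after UUO was from −0.26 to 0.24 on leaving out each library. The difference between the knockout effects was from −0.87 to 0.47 for Acta2 and from −0.17 to 0.17 for Vim on leaving out each library, and thus changed sign. The cause was not tested. Postn had no value after UUO with a filter at 1 FPKM or without β-catenin knockout replicate 1. With 3 mice a group, the intervals of Acta2, Postn and Ctgf are wide.

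Replicate numbers are shared between groups, but nothing says what they pair. The correlations between same-numbered libraries were from 0.04 to 0.20 after UUO and from −0.14 to −0.03 after UIRI. With the replicate number as a block, 4 members were called after UUO and 0 after UIRI (limma adjusted p = 0.0830 for Pdgfra and 0.0903 for Vim). Over all genes the block gave 992 higher and 675 lower after UUO, and 0 and 0 after UIRI.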
